A study of Mus musculus with 6 samples.

Results

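Interferon-stimulated genes, which cells switch on when an interferon binds its receptor, were followed in RNA-seq of Paneth cells. The 38 genes were chosen by name: 31 members best known for induction by type I interferons and 7 members best known for induction by interferon gamma, which were Irf1, Gbp2, Gbp3, Gbp7, Igtp, Irgm1 and Irgm2. All 38 were found by symbol among the 55414 genes of the deposited raw count table, each with 1 Ensembl identifier. Paneth cells, the antimicrobial secretory cells of the crypt base, had been isolated by FACS from small intestine of wild-type (WT) mice, which the study's methods give as C57BL/6J, with 1 mouse per library. Group St_TNF ate standard chow and group ZincDef_TNF ate zinc depleted chow for 7 weeks. Mice of both groups received tumor necrosis factor (TNF) 3 h before sampling, and 3 libraries per group were analysed here, named below standard diet replicates 1 to 3 and zinc depleted replicates 1 to 3. The series design mentions 4 replicates per group. Mice without TNF were not analysed here, so no value below measures the response to TNF, and zinc depletion was compared only among mice that had received TNF.

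Type I and type III interferons lead to assembly of ISGF3, a complex that contains STAT2 and IRF9 and binds the interferon-stimulated response element (ISRE), whereas interferon gamma acts through the gamma-activated site (GAS). IRF1 is a further factor of the gamma response and binds ISRE-like sequences, and TNF can induce it through NF-kB. In the gut epithelium, interferon lambda receptors and interferon gamma receptors are both known to be used, and many of the induced proteins restrict viruses or intracellular microbes. The classes overlap, because many of these genes respond to either kind of interferon.

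Promoter windows were available in RefSeq (GRCm38.p6) for 29 of the 38 genes, and covered 250 bases before and 50 bases after the annotated start. The windows were searched on both strands for an ISRE core spelled GAAANNGAAA and a GAS core spelled TTCNNNGAA, and matches could overlap each other, as both motifs do in Bst2. The ISRE core was present for 16 of the 29 genes (55.2%), against 3.99% of all 27025 genes with a window, and the GAS core for 8 of the 29 (27.6%), against 9.55% of all. The ISRE core was found for 10 of 22 type I members and 6 of 7 gamma-type members, and the GAS core for 4 of 22 and 4 of 7. A kappa B core spelled GGGNNTTTCC was found for 0 of the 29 genes, against 1.90% of all genes. Only this spelling was searched on both strands, so the 0 does not show that these windows lack kappa B sites. The Irf1 window below, for example, holds the related letters ggggaatccc, which this spelling does not match. These matches describe letters in a window and do not show binding. Dhx58, Ifi27, Mx1, Mx2, Oas2, Parp9, Parp14, Usp18 and Zbp1 had no window. The 4 windows below were chosen because these genes stood at different ends of the measured levels, and the capitals mark the ISRE and GAS cores or their reverse complements. They are the windows of Isg15 (chr4:156200769-156201068, minus strand; 3 overlapping ISRE cores 78, 72 and 66 bases before the start), Ifit3 (chr19:34583279-34583578, plus strand; ISRE cores 156 and 122 bases before the start), Gbp2 (chr3:142620413-142620712, plus strand; 1 ISRE core 59 bases before the start) and Irf1 (chr11:53769764-53770063, plus strand; 1 GAS core 90 bases before the start).
Isg15: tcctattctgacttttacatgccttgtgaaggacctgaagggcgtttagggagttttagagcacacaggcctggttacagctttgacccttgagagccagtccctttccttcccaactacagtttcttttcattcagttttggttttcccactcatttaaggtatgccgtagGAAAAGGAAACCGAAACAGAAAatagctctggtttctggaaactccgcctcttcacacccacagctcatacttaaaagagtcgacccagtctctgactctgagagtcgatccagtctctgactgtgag
Ifit3: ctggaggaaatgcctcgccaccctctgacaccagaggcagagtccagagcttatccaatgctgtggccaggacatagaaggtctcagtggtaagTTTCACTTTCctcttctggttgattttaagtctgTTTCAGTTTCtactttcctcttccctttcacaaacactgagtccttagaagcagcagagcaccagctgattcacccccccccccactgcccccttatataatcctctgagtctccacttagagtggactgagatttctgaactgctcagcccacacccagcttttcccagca
Gbp2: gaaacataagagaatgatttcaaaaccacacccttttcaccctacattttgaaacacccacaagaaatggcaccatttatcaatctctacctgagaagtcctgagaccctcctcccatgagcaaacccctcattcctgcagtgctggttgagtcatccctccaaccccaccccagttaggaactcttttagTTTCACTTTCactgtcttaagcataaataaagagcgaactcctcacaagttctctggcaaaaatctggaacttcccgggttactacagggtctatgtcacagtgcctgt
Irf1: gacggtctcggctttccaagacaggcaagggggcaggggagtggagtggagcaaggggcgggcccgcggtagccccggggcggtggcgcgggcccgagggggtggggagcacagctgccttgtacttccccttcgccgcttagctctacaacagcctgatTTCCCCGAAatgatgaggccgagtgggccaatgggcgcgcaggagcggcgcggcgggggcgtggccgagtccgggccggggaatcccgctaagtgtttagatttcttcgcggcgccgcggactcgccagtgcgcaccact

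The total of gene counts per library ranged from 6139397 to 12772373. Values are given as CPM, the counts per 1000000 of that total, or as TMM-scaled CPM, which is CPM divided by a factor estimated so that most genes do not differ between libraries. The factors ranged from 0.459 in zinc depleted replicate 3 to 1.73 in standard diet replicate 1, so the order of the libraries depends on the scale. Over the 9749 genes that passed the low-count filter, the median log2 fold change of zinc depletion was 0.00 with TMM scaling and -0.67 with total counts only. The 7 Paneth cell markers, among them Lyz1, together held 419240 to 563660 CPM. With total counts from which the alpha-defensin genes were left out, the median log2 fold change was -0.56 over the 9727 genes then tested. The part of the Paneth cell markers in the difference between the scales was not tested. A gene with a count of 0 could still have up to 3 counts, equal to 0.235 to 0.489 CPM in these libraries, a limit for counting error only. Since the cells were measured in bulk, fewer cells of a type and less RNA per cell cannot be told apart.

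Mean levels over the 6 libraries ranged from 0 for Ifit3 and Ifit3b to 63.6 CPM for Lgals3bp. In all, 28 of 38 had counts in every library, 12 had a mean of at least 10 CPM, and 10 had a mean under 1 CPM. The 38 genes together took 0.0164% to 0.0797% of the counts of a library. Compared per kilobase of exon, with the exons of all annotated transcripts of a gene merged, the mean levels over the 6 libraries were highest for Lgals3bp, a secreted glycoprotein (12.1 CPM per kilobase), Trim25, a ubiquitin ligase that acts on RIG-I (10.96), Gbp2, a guanylate-binding GTPase (9.5), Irf1 (7.68) and Irgm1, an immunity-related GTPase (5.50). This order depends on the length used. Merged exons spanned 6356 bases for Irgm1 and 4678 for Irf1, against 2086 and 2136 in their canonical transcripts. For Trim25 (5757 against 5593) and Gbp2 (2561 against 2540) the lengths were close. The median was 2.08 CPM per kilobase over the 7 gamma-type members and 1.02 over the 31 type I members. The filter passed 25 of the 38, which were 20 of 31 type I members and 5 of 7 gamma-type members. Among those 25, 14 had a mean CPM above the median of all tested genes, 7.90 CPM.

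The Ifit genes, whose proteins bind foreign RNA, were close to or at 0. Ifit3 and Ifit3b had 0 counts in all 6 libraries, and their promoter windows hold 2 ISRE cores each. Of the 75-base stretches of their transcripts, 63.9% and 63.1% were specific and the rest were shared by the pair. Ifit1 had 6, 0 and 9 counts in St_TNF and 6, 4 and 0 counts in ZincDef_TNF. Ifit2 had 15 counts in standard diet replicate 1 and 0 counts in the other libraries. The 4 genes lie within 104.2 kb on chromosome 19 (GRCm39, 34527932 to 34632174). Mx1, Mx2, Rsad2 and Ifi44 were also sparse. The Mx genes encode dynamin-like GTPases, and Mx1, which carries a large deletion in most inbred laboratory strains, had 3 counts over all libraries and Mx2 had 4. Rsad2, which encodes viperin, had 13 counts, and Ifi44 had 9. None of these 8 genes passed the filter, and Oas2, Oas3, Dhx58, Gbp3 and Gbp7 were the other 5 that did not, with 23 to 75 counts each over the 6 libraries. Gbp7 had 58 of its 75 counts in zinc depleted replicate 1.

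**Figure D1:**
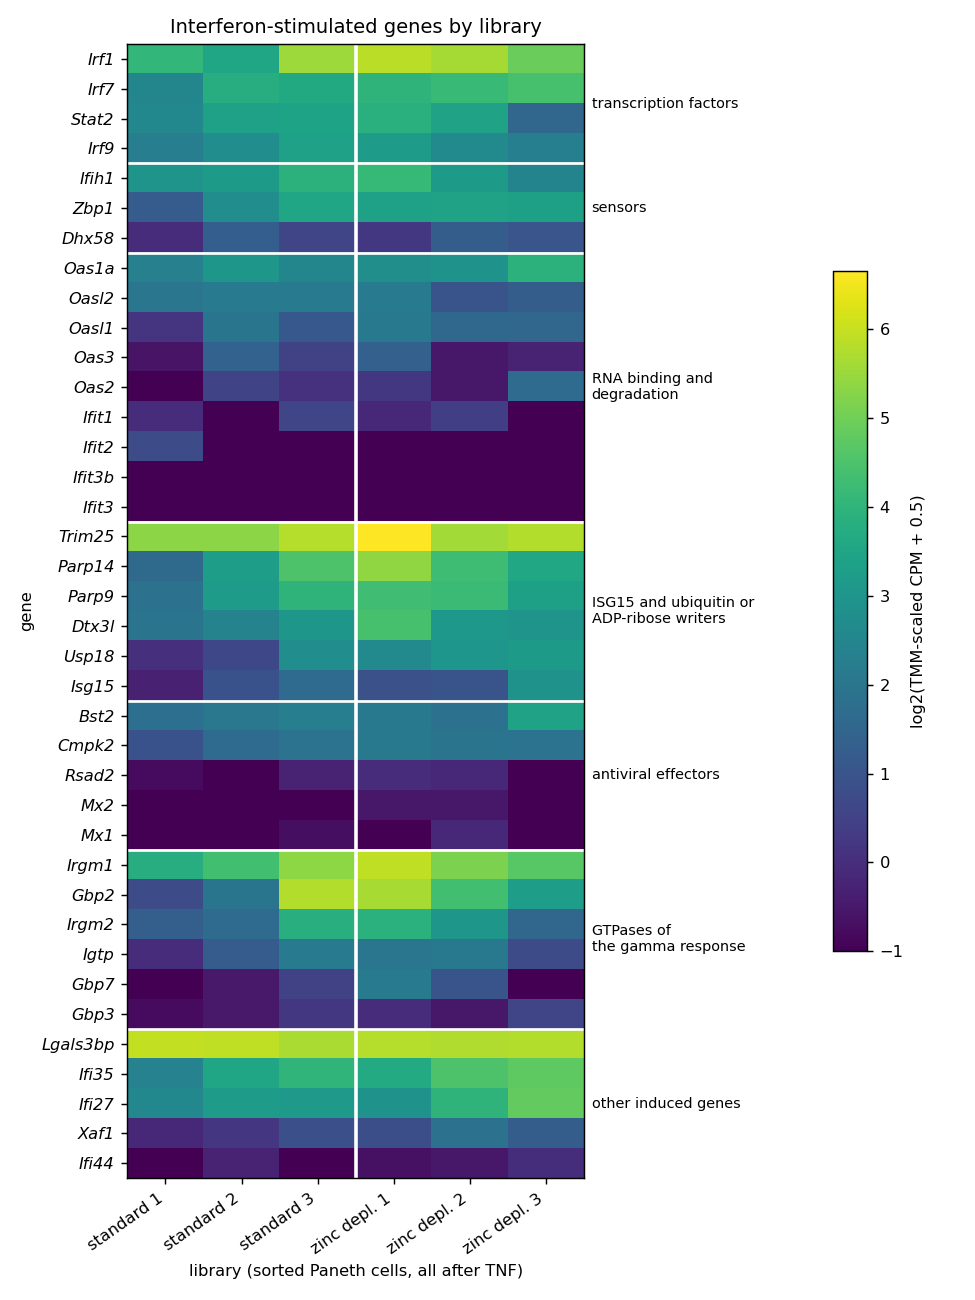
Heat map of the 38 interferon-stimulated genes (rows, grouped by role) in the 6 libraries (columns), with color for log2(TMM-scaled CPM + 0.5) from dark (lowest) to yellow (highest). Ifit3 and Ifit3b are at the lowest color in every library, Trim25 and Lgals3bp are high throughout, and standard diet replicate 1 is darker than standard diet replicate 3 for most inducible genes.

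The transcription factors Irf7, Stat2 and Irf9 belong to the type I response and Irf1 to both. Irf7, which amplifies type I interferon production, had 5.22, 13.0 and 12.1 TMM-scaled CPM in St_TNF and 15.3, 17.5 and 21.2 in ZincDef_TNF. All 3 zinc depleted libraries were above all 3 standard diet libraries on this scale (log2 fold change 0.83, SE 0.42, n = 3 and 3, edgeR adjusted p = 0.681). Of the 25 tested genes this held for Irf7 only, against 3.51% of all tested genes, and 0 of 25 were lower in every zinc depleted library, against 6.58%. A count of 1 of 25 is near the share over all genes. On plain CPM, Irf7 was 8.99, 19.5 and 10.8 in St_TNF and 22.3, 11.2 and 9.71 in ZincDef_TNF, and the groups overlapped. On plain CPM 0 of 25 genes were higher in every zinc depleted library, against 0.554% of all tested genes, and 0 were lower, against 10.3%.

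Irf1 had 16.2, 11.2 and 46.2 TMM-scaled CPM in St_TNF and 58.2, 48.9 and 29.5 in ZincDef_TNF. Standard diet replicate 3 lay among the zinc depleted libraries and standard diet replicates 1 and 2 lay below them (log2 fold change 0.90, SE 0.54, edgeR adjusted p = 0.681). Antisense genes overlap Irf1, and 88.5% of its 75-base stretches were specific. Stat2 and Irf9 were nearer to no difference. Stat2 had 5.46, 9.98 and 10.3 TMM-scaled CPM in St_TNF and 14.1, 10.1 and 2.39 in ZincDef_TNF (log2 fold change 0.07, SE 0.56, and -0.26 with total counts only). Irf9 ranged from 4.35 to 9.95 TMM-scaled CPM and its log2 fold change was -0.08 (SE 0.46).

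The genes for ISG15, its protease and the ADP-ribosyl transferases and ubiquitin ligases had a median log2 fold change of 1.12, and all 6 had a fold change above 0. Without zinc depleted replicate 1 these ranged from 0.20 (Trim25) to 1.64 (Usp18), with Parp14 at 0.42 and Dtx3l at 0.55. Isg15, a ubiquitin-like protein that is conjugated to other proteins, was low, with 0.316, 1.41 and 2.68 TMM-scaled CPM in St_TNF and 1.38, 1.48 and 7.00 in ZincDef_TNF (log2 fold change 1.16, SE 0.85, edgeR adjusted p = 0.709). The high value came from zinc depleted replicate 3. An antisense gene overlaps Isg15, 76.0% of its 75-base stretches were specific, and since the strand setting of the counting is unknown, reads of both genes cannot be told apart. Usp18, which removes ISG15 and dampens the type I receptor, had 0.554, 1.08 and 6.26 TMM-scaled CPM in St_TNF and 5.78, 7.59 and 8.53 in ZincDef_TNF. Standard diet replicate 3 alone among the standard diet libraries reached the zinc depleted range (log2 fold change 1.48, SE 0.74, edgeR adjusted p = 0.681).

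Parp14, Dtx3l and Parp9 lie within 139.8 kb on chromosome 16 (GRCm39, 35653231 to 35792980), and Dtx3l and Parp9, whose products form a complex of an E3 ligase and an ADP-ribosyl transferase, overlap on opposite strands, so that reads of the overlap cannot be told apart either. Dtx3l had 3.32, 4.88 and 7.72 TMM-scaled CPM in St_TNF and 20.8, 8.01 and 7.34 in ZincDef_TNF. The log2 fold change of Dtx3l, 1.21 (SE 0.51), had the smallest unadjusted p of the 25 genes, 0.0374, and an edgeR adjusted p = 0.681. Parp9 had 3.09, 8.79 and 15.4 TMM-scaled CPM in St_TNF and 19.2, 18.1 and 9.73 in ZincDef_TNF (log2 fold change 0.79, SE 0.54). Parp14, also an ADP-ribosyl transferase, had 2.61, 9.0 and 22.5 against 41.6, 18.8 and 11.4 TMM-scaled CPM (log2 fold change 1.09, SE 0.69, edgeR adjusted p = 0.694). All 3 genes were highest in zinc depleted replicate 1 and lowest in standard diet replicate 1. Trim25 had 39.7, 39.5 and 54.9 TMM-scaled CPM in St_TNF and 101, 47.6 and 54.4 in ZincDef_TNF, so zinc depleted replicate 1 alone stood above the other libraries (log2 fold change 0.60, SE 0.41).

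**Figure D2:**
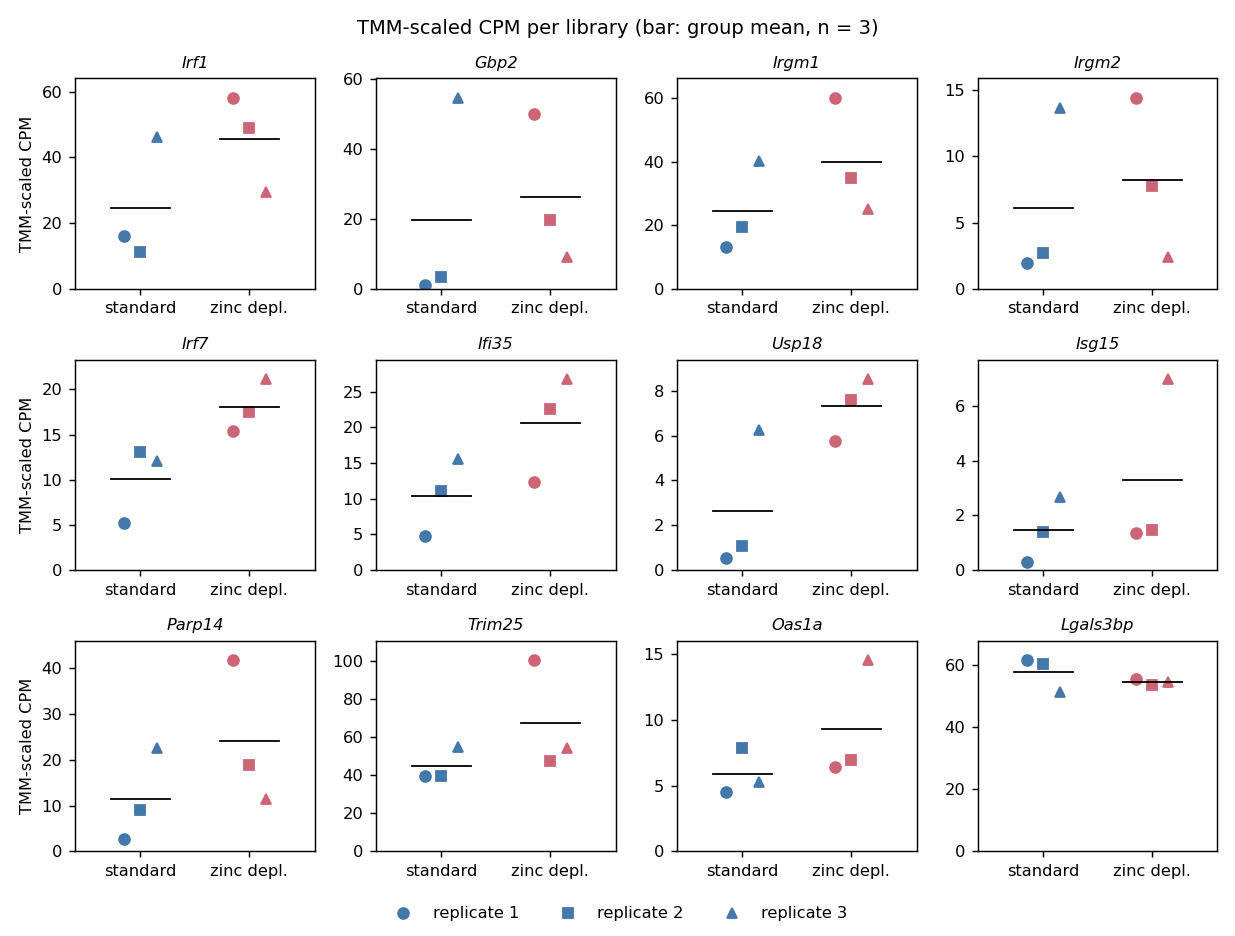
TMM-scaled CPM (y axis, from 0) of 12 interferon-stimulated genes in the 3 standard diet libraries (blue) and the 3 zinc depleted libraries (red), with the replicate number as the symbol and the group mean as a bar. Gbp2 reached 54.7 in standard diet replicate 3 and 50.0 in zinc depleted replicate 1 and stayed under 20 in the other libraries, whereas Lgals3bp stayed between 51.3 and 61.5 in all 6.

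For the cytosolic sensors the diet groups overlapped. Ifih1, which encodes the RNA sensor MDA5, had 7.36, 8.46 and 14.8 TMM-scaled CPM in St_TNF and 17.1, 8.43 and 4.95 in ZincDef_TNF (log2 fold change 0.02, SE 0.49, and -0.25 with total counts only). Zbp1, a sensor of Z-form nucleic acids that can trigger necroptosis, had 1.82, 6.29 and 10.7 against 9.91, 10.1 and 9.73 TMM-scaled CPM (log2 fold change 0.67, SE 0.55, edgeR adjusted p = 0.735). For Zbp1 the zinc depleted libraries were close together and standard diet replicate 3 was above them. Oas1a makes the second messenger that activates RNase L, and its TMM-scaled CPM was 4.51, 7.81 and 5.26 in St_TNF and 6.40, 6.96 and 14.5 in ZincDef_TNF (log2 fold change 0.66, SE 0.45, and -0.24 with total counts only). Of its 75-base stretches, 53.1% were specific and the rest were shared with Oas1g. Oasl2 was the tested member with the lowest log2 fold change, -0.61 (SE 0.51), and its relative Oasl1 ranged from 0.633 to 3.78 TMM-scaled CPM (log2 fold change 0.62, SE 0.64). Bst2 encodes tetherin, which holds budding virions at the cell surface, and had 3.01, 3.69 and 4.36 TMM-scaled CPM in St_TNF and 3.78, 3.16 and 10.2 in ZincDef_TNF (log2 fold change 0.63, SE 0.53, edgeR adjusted p = 0.737, and -0.25 with total counts only). Its high value again came from zinc depleted replicate 3. Cmpk2, a mitochondrial nucleotide kinase gene that neighbours Rsad2 within 37.1 kb on chromosome 12, ranged from 1.42 to 3.78 TMM-scaled CPM (log2 fold change 0.51, SE 0.51, and -0.043 with total counts only).

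Ifi27, which encodes a small protein of the mitochondrial membrane, had 5.46, 8.89 and 8.39 TMM-scaled CPM in St_TNF and 7.16, 15.2 and 28.0 in ZincDef_TNF. The log2 fold change of Ifi27 was 1.14 (SE 0.50, unadjusted p = 0.0427, edgeR adjusted p = 0.681), and zinc depleted replicate 1 lay within the standard diet range. On plain CPM, Ifi27 was 9.40, 13.4 and 7.52 against 10.4, 9.69 and 12.8, and the fit with total counts only gave a log2 fold change of 0.12. Ifi35, which binds the protein NMI, had 4.75, 11.1 and 15.5 TMM-scaled CPM in St_TNF and 12.4, 22.6 and 26.8 in ZincDef_TNF (log2 fold change 0.97, SE 0.49, edgeR adjusted p = 0.681). Ifi35 overlaps Vat1 on the other strand, 80.8% of its 75-base stretches were specific, and without the strand setting of the counting their reads cannot be told apart. Lgals3bp had 61.5, 60.1 and 51.3 against 55.4, 53.3 and 54.4 TMM-scaled CPM, a spread of 1.20-fold between the highest and the lowest library, which was the smallest of the 25 genes. Its log2 fold change was -0.08 (SE 0.35) with TMM scaling and -0.80 with total counts only. Xaf1, whose product antagonises the apoptosis inhibitor XIAP, ranged from 0.396 to 3.16 TMM-scaled CPM (log2 fold change 1.38, SE 0.71).

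The GTPases of the gamma response varied widely within a group. Gbp2, which binds pathogen-containing vacuoles, had 1.19, 3.47 and 54.7 TMM-scaled CPM in St_TNF and 50.0, 19.8 and 9.21 in ZincDef_TNF, from 15, 32, 489, 727, 94 and 54 counts. The highest library exceeded the lowest by 46.1-fold, and the diets differed by less than this spread (log2 fold change 0.43, SE 1.06, edgeR adjusted p = 0.909). Irgm1, a regulator of other immunity-related GTPases and of autophagy, had 13.3, 19.6 and 40.4 against 60.3, 34.8 and 25.1 TMM-scaled CPM (log2 fold change 0.72, SE 0.50, edgeR adjusted p = 0.707). Igtp (0.475 to 3.91 TMM-scaled CPM) and Irgm2 (1.98 to 14.4), which overlap on 1 strand of chromosome 11, had log2 fold changes of 0.47 (SE 0.74) and 0.46 (SE 0.76). In all 5 tested gamma-type members, Irf1 included, standard diet replicate 3 was above standard diet replicates 1 and 2, and zinc depleted replicate 3 was below zinc depleted replicates 1 and 2.

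In the comparison of the diets edgeR called 0 of the 25 tested members and 0 of all 9749 tested genes (0.00%) at an adjusted p of 0.05, with 645 genes at an unadjusted p under 0.05 and a smallest adjusted p of 0.681. DESeq2 called 10 of all genes and 0 members, and edgeR without the low-count filter 76 and 0. At an unadjusted p under 0.05 and higher with zinc depletion there were 2 of 25 members, Dtx3l and Ifi27, against 2.58% of all genes, and 0 members were lower, against 4.03% of all genes. With TMM scaling, 22 of the 25 log2 fold changes were above 0 (17 of 20 type I, 5 of 5 gamma-type), against 50.0% of all genes, and their median was 0.66, against 0.00 over all genes. With total counts only, 17 of 25 were above 0, against 13.1% of all genes, and their median was 0.19, against -0.67 over all genes. The median of the type I members was 0.66 with TMM scaling and 0.13 with total counts only, and that of the gamma-type members 0.47 and 0.45. Such counts describe genes that share libraries and were not tested as a list. Irf9, Lgals3bp and Oasl2 were the 3 members below 0 with TMM scaling.

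Standard diet replicate 3 weighed heavily on these values. Without it, the median log2 fold change of the 26 members then tested was 1.30, with 23 above 0, and that of the gamma-type members was 1.78. Gbp2 then had a log2 fold change of 3.58 (edgeR adjusted p = 0.103), Usp18 3.20 (edgeR adjusted p = 0.0735) and Irf1 1.78 (edgeR adjusted p = 0.149). Each of these genes was highest in standard diet replicate 3 among the standard diet libraries, so leaving that library out raised its fold change. In that fit 15.3% of all tested genes had an unadjusted edgeR p under 0.05, and 11 of the 26 members (42.3%). With all 6 libraries these were 6.62% and 2 of 25 (8%). Without standard diet replicate 1 the median of the gamma-type members was 0.03 and that of the 28 then tested members 0.40. The gamma-type median was 0.27 without zinc depleted replicate 1 and 0.93 without zinc depleted replicate 3. edgeR called 0 members in each of these fits, and 28 of all genes without standard diet replicate 3.

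**Figure D3:**
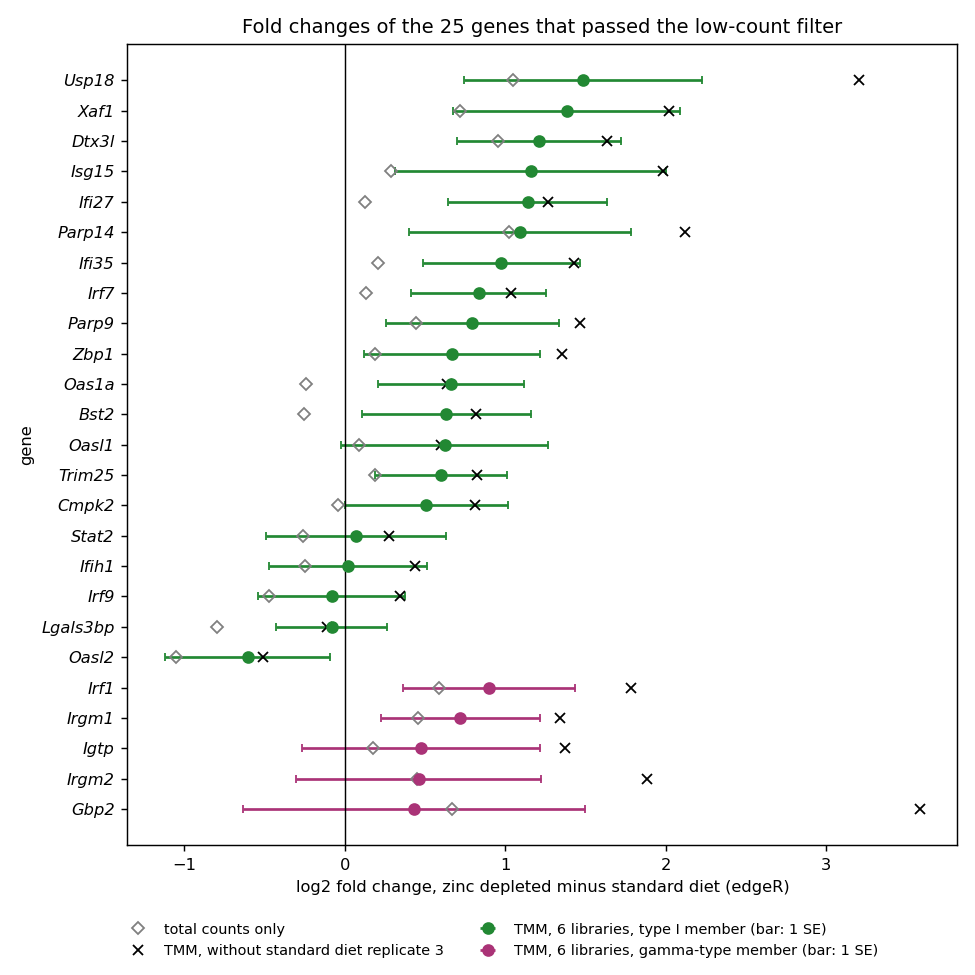
Log2 fold changes (x axis, zinc depleted minus standard diet) of the 25 tested genes, with type I members in green and gamma-type members in purple; circles with bars of 1 SE are the edgeR fit with TMM scaling, diamonds the fit with total counts only, and crosses the TMM fit without standard diet replicate 3. The crosses of Gbp2 (3.58) and Usp18 (3.20) lie far to the right of their circles (0.43 and 1.48), and the diamonds of Bst2 and Oas1a lie on the other side of 0 from their circles.

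Summed over the members, the classes ordered the libraries differently. The 31 type I members summed to 278, 325 and 239 CPM in St_TNF and 519, 172 and 133 CPM in ZincDef_TNF, so zinc depleted replicate 1 was above and the other zinc depleted libraries were below all standard diet libraries. With TMM scaling the same sums were 161, 216 and 266 against 357, 270 and 290, and all zinc depleted libraries were above the standard diet libraries. On the log2 scale the difference between the diets was -0.29 for CPM and 0.53 for TMM-scaled CPM, so its direction depended on the scale. The 7 gamma-type members summed to 57.2, 59.0 and 144 CPM in St_TNF and 278, 74.6 and 31.4 CPM in ZincDef_TNF, a log2 difference of 0.14, which became -0.70 without zinc depleted replicate 1 and 0.87 without zinc depleted replicate 3. With TMM scaling these sums were 33.2, 39.3 and 160 against 191, 117 and 68.4, a log2 difference of 0.96, and the groups overlapped on both scales. The ratio of the gamma-type to the type I sum is the same for CPM and TMM-scaled CPM. It was 0.206, 0.182 and 0.602 in St_TNF and 0.535, 0.433 and 0.236 in ZincDef_TNF. Standard diet replicate 3 had the highest ratio of all 6 and the other standard diet libraries the lowest, and the groups overlapped, with a log2 difference of 0.43 between group means (SD 0.95 and 0.61, n = 3 and 3). Per kilobase of exon the ratio was 0.208, 0.178 and 0.765 against 0.687, 0.474 and 0.207, and zinc depleted replicate 3 then lay between standard diet replicates 1 and 2. Irf1 gave 33.2% of the gamma-type counts and Trim25 23.1% of the type I counts over all libraries, and without both genes the ratio was 0.140, 0.159 and 0.540 against 0.517, 0.306 and 0.165.

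**Figure D4:**
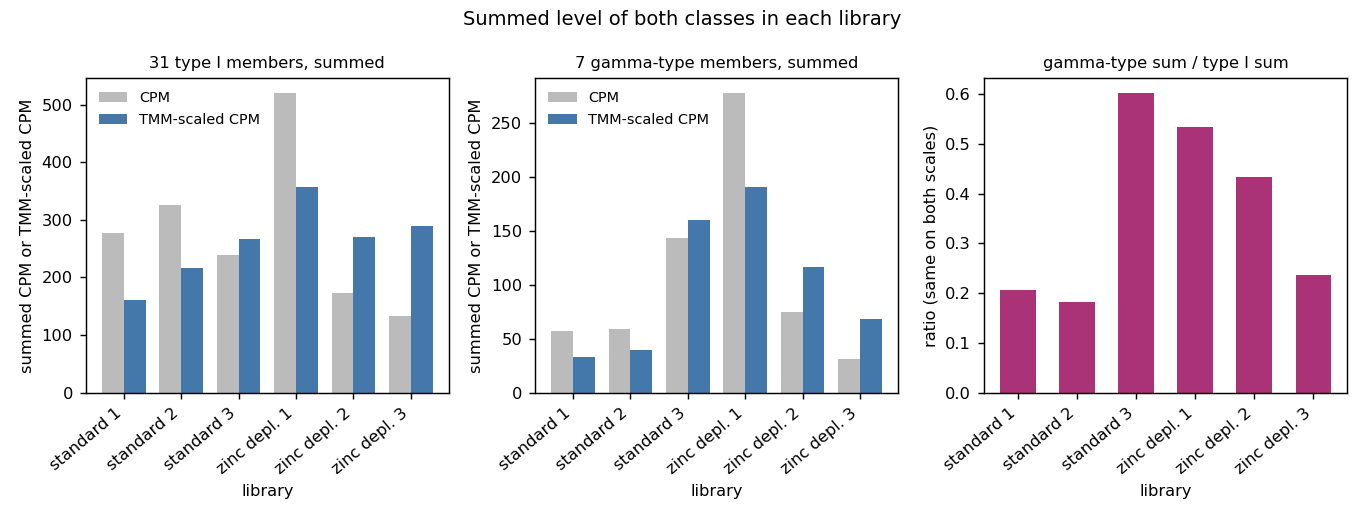
Sum of the 31 type I members (left) and of the 7 gamma-type members (middle) in each library as CPM (grey) and TMM-scaled CPM (blue), and the ratio of the gamma-type to the type I sum (right). The ratio is 0.182 to 0.206 in standard diet replicates 1 and 2 and zinc depleted replicate 3 follows at 0.236, while the other 3 libraries reach 0.433 to 0.602.

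The order of the libraries within each diet group does not depend on the comparison of the diets. With TMM scaling, standard diet replicate 1 was below both other standard diet libraries for 22 of the 25 tested members (88%), against 32.0% of all tested genes. Standard diet replicate 3 was above both for 20 of 25 (80%), against 39.7% of all tested genes. With plain CPM, standard diet replicate 3 was above both for 12 of 25 (48%), against 8.96% of all tested genes. Its TMM-scaled level exceeded the mean of replicates 1 and 2 by 23.5-fold for Gbp2, 7.65-fold for Usp18, 5.82-fold for Irgm2, 3.87-fold for Parp14 and 3.37-fold for Irf1, whereas Oasl1, Lgals3bp and Oas1a were below that mean, at 0.818 to 0.853 of it. Within the zinc depleted group and with TMM scaling, replicate 1 was above both others for 15 of 25 members (60%), against 44.4% of all tested genes, and replicate 3 was below both for 14 (56%), against 37.9%. With plain CPM, zinc depleted replicate 1 was above both for 22 of 25 (88%), near the 83.6% of all tested genes. Zinc depleted replicate 3 was then below both for 21 (84%), against 69.8%.

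Across all 6 libraries and on plain CPM, zinc depleted replicate 1 was the highest library for 18 of the 25 tested members (72%), against 28.9% of all tested genes. With TMM scaling it was the highest for 11 members (44%), against 22.2%, zinc depleted replicate 3 for 7 (Isg15, Irf7, Oas1a, Usp18, Ifi27, Ifi35 and Bst2; 28%), against 26.9%, and standard diet replicate 3 for 5 (20%), against 7.83%. Standard diet replicate 1 was the lowest or tied lowest for 19 (76%), against 17.3% of all tested genes. Of the 33 members with at least 10 counts in total, 8 of which did not pass the filter, zinc depleted replicate 1 had the highest CPM for 21, among them all 7 gamma-type members. With TMM scaling zinc depleted replicate 1 was the highest for 13 of the 33, among them 4 of the 7 gamma-type members. These orders were described after the values had been seen, and were not tested.

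**Figure D5:**
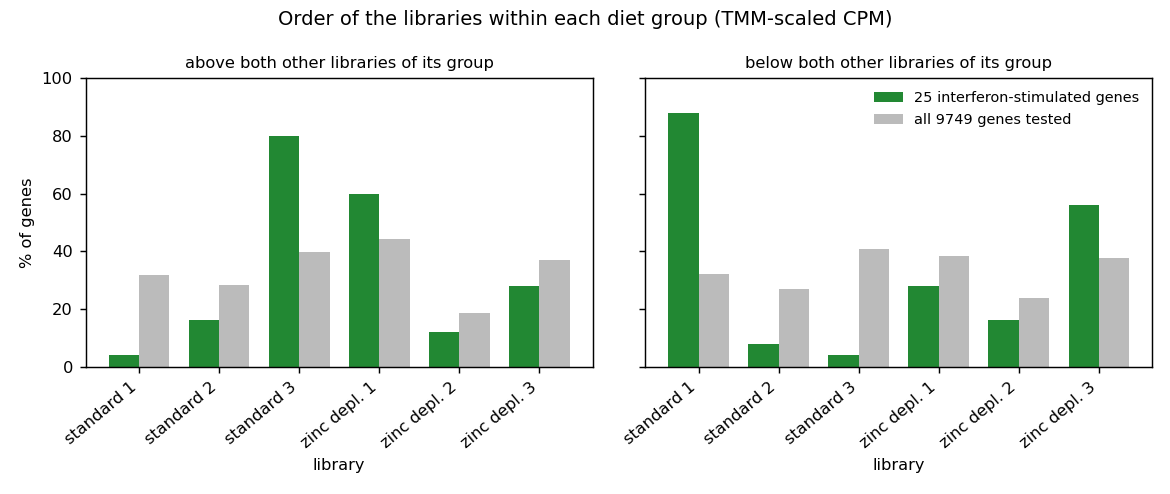
Share of genes (y axis, %) for which a library (x axis) was above both (left) or below both (right) other libraries of its diet group in TMM-scaled CPM, for the 25 tested interferon-stimulated genes (green) and all 9749 tested genes (grey). The green bars reach 80% for standard diet replicate 3 on the left and 88% for standard diet replicate 1 on the right, where the grey bars are 39.7% and 32.0%.

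Genes upstream of the members were examined as lists. All 21 interferon ligand genes, Ifnb1 among them, had 0 counts in all 6 libraries, so no interferon transcript was detectable at this depth. Of the 19 genes for receptors and their signalling, all were tested, 0 were called, 16 had a log2 fold change above 0 with TMM scaling, and their median was 0.50. With total counts only these were 10 of 19 and 0.01. Of all tested genes, 50.0% were above 0 with TMM scaling (median 0.00) and 13.1% with total counts only (median -0.67). The values that follow are with TMM scaling. Ifnar1, a subunit of the type I receptor, had a log2 fold change of 0.90 (SE 0.42) and Ifngr1, a subunit of the gamma receptor, 0.37 (SE 0.38, and -0.40 with total counts only). Ifnlr1, the specific subunit of the lambda receptor, had 16, 8 and 23 counts in St_TNF and 43, 8 and 0 in ZincDef_TNF. Ptpn2, a tyrosine phosphatase that dampens interferon signalling, had a log2 fold change of 1.08 (SE 0.48). Of 14 genes of nucleic acid sensing, 12 were tested, 0 were called and 8 were above 0 (median 0.29; 6 with total counts only), among them Myd88, an adaptor of toll-like receptors, at 0.74 (SE 0.51), and the kinase gene Tbk1 at 0.64 (SE 0.42).

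Other induced genes outside the 38 were examined in the same way. Cxcl10, a chemokine that attracts T cells, had 1, 2 and 122 counts in St_TNF and 150, 29 and 64 in ZincDef_TNF (log2 fold change 1.00, SE 1.15, edgeR adjusted p = 0.809). Cxcl11, a chemokine for the same receptor, had 4, 6 and 158 counts against 305, 181 and 206 (log2 fold change 2.35, SE 1.06, edgeR adjusted p = 0.681). Slfn2, a schlafen family gene, had 9, 7 and 49 counts against 63, 48 and 133 (log2 fold change 2.42, SE 0.82, edgeR adjusted p = 0.681). In all 3 genes standard diet replicate 3 was far above standard diet replicates 1 and 2. Of the 42 genes of that list 25 were tested, 0 were called and 20 were above 0 (median 0.49), against 50.0% of all tested genes. With total counts only 11 were above 0 (median -0.05), against 13.1% of all tested genes (median -0.67). Of 16 other guanylate-binding and immunity-related GTPases, 13 were in the table and 2 were tested, Ifi47 (log2 fold change 1.09, SE 0.63) and Gm12250 (log2 fold change 1.58, SE 0.68).

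Markers of other cell types were present in the sorted cells at levels that differed between libraries. The 19 immune markers summed to 39.5 to 97.3 CPM in St_TNF and 36.7 to 61.9 CPM in ZincDef_TNF, and most of this was Lyz2, with 955 counts in standard diet replicate 3. Ptprc, which encodes CD45, had 5, 33 and 2 counts in St_TNF and 0, 6 and 4 in ZincDef_TNF, and Cd3e, Cd4, Itgax and Siglech, 4 of the 19, were at 0 in all libraries. The immune sum was highest in standard diet replicate 3, where the ratio of gamma-type to type I members was also highest. In that library Lyz2 alone gave 955 of the 971 immune counts, and Ptprc was lower than in standard diet replicates 1 and 2. The other lysozyme gene, Lyz1, held 119550 to 192220 CPM in these libraries, and the handling of multi-mapped reads is not given. Whether Lyz1 reads were counted for Lyz2 was not tested, so the immune sum may not measure immune cells. The 7 tuft cell markers, all detected, summed to 25.7 to 802 CPM in St_TNF and 31.2 to 205 CPM in ZincDef_TNF. The highest sum was in standard diet replicate 2, which also had the highest CPM of Oas1a, Oas2, Oas3, Dhx58, Ifi27 and Bst2. These were 6 of the 33 members with at least 10 counts in total (18.2%). Of all tested genes, 18.0% had their highest CPM in that library, so the count is near the share over all genes. With TMM scaling only Oas3 and Dhx58 of the 6 were highest in standard diet replicate 2, and the other 4 were highest in zinc depleted replicate 3. The 8 enterocyte markers summed to 19.5 to 143 and 13.6 to 23.0 CPM, the 6 goblet cell markers to 1492 to 2903 and 1727 to 6352 CPM, with the highest sum in zinc depleted replicate 1, the 4 stem cell markers to 1172 to 3567 and 472 to 565 CPM, the 7 enteroendocrine markers to 43.2 to 82.6 and 27.4 to 39.7 CPM, and the 7 endothelial and stromal markers to 0.545 to 2.12 and 0.548 to 1.48 CPM. All these sums are on plain CPM. With TMM scaling, 3 of 3 tested stem cell markers and 4 of 6 tested enteroendocrine markers had a log2 fold change below 0. The diet groups then overlapped for Olfm4 and Sct, the stem cell and enteroendocrine markers with the most counts. Cck, another enteroendocrine marker, was lower in every zinc depleted library. The part of these cells in the values of the interferon-stimulated genes was not tested.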

How the data were processed

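Paneth cells were sorted and sequenced as single-end reads, and per the labels the authors deposited raw counts per gene. The submitters' processing notes name FastQC, Trimmomatic 0.39, STAR 2.7.10a, DESeq2 and mm39. Counter, strand setting and handling of multi-mapped reads: not given in the sources used here. Symbols came from GENCODE M39 (54749 of 55414 identifiers). From the deposited counts, edgeR 4.0.16 in R 4.3.3 was run with TMM normalization, filterByExpr and diet as the only term (quasi-likelihood F test, two-sided, Benjamini-Hochberg over 9749 genes, threshold 0.05). DESeq2 1.42.0, limma 3.58.1 (voom) and other scalings and filters were alternatives. Total counts were 6139397 to 12772373. The procedure was tested on simulated data. The genes and lists were chosen with earlier results of these data known. Values for each library are given for genes with a mean of at least 10 CPM, the 5 smallest unadjusted p and some genes listed by name, and counts for genes with a library at 0. From each pathway list, genes with a called difference or the 2 smallest p and a few receptors and chemokines were named. Specific stretches were computed from the GENCODE transcripts. A listed signalling gene is not reported here.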

Additional observations from a re-analysis of the deposited data

How the results depend on the processing

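No member was called under any of the 14 alternatives, 15 of the 25 kept their sign in all of them, and Xaf1 kept it in the 13 that gave it a value. The count of all genes called was 0 with edgeR, 10 with DESeq2, 76 without the low-count filter and 0 to 28 when libraries were left out in turn, with 28 without standard diet replicate 3. The log2 difference of the summed type I members was -0.29 for CPM and 0.53 for TMM-scaled CPM (-0.88 to 0.10 with libraries left out), and with libraries left out that of the gamma-type sum was -0.70 to 0.87 and that of the ratio 0.11 to 0.97. The median log2 fold change of all members ranged from 0.40 to 1.30 with libraries left out, and that of the type I members was 0.13 with total counts only. Signs turned for some genes. With total counts only the log2 fold changes were -0.25 for Bst2, -0.043 for Cmpk2, -0.25 for Ifih1, -0.24 for Oas1a and -0.26 for Stat2, and with total counts without alpha-defensins -0.088 for Bst2, -0.24 for Ifih1, -0.068 for Oas1a and -0.23 for Stat2. With voom they were -0.039 for Ifih1, 0.012 for Irf9 and -0.13 for Stat2. With libraries left out they ranged from -0.027 to 0.94 for Bst2, -0.44 to 3.58 for Gbp2, -0.60 to 0.44 for Ifih1, -0.016 to 1.37 for Igtp, -0.39 to 0.34 for Irf9, -0.26 to 1.88 for Irgm2 and -0.46 to 0.55 for Stat2. The cause was not tested. Whether the shared replicate numbers pair the libraries is not stated in the sample titles. Deviations from the group means correlated at 0.147, -0.058 and 0.248 for replicates 1, 2 and 3. For unlike replicate numbers they correlated at -0.278 to 0.250. With 3 libraries per group these values cannot decide the question. With the replicate block, 0 genes were called, 4 of 25 members (16%) had an unadjusted p under 0.05, against 9.87% of all genes, and the log2 fold changes were -0.079 for Ifih1 and -0.13 for Stat2. In counts simulated at this depth and spread, edgeR recovered 53 of 182 genes with 4-fold differences and 173 of 188 with 8-fold differences. It also called 4 unchanged genes in the 4-fold simulation and 13 in the 8-fold simulation.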
